A study of Mus musculus with 6 samples.

Results

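Glucose enters most cells through the carrier Slc2a1 (GLUT1) and is broken down to pyruvate by the glycolytic enzymes. Described here are 10 genes of this route out of 18193 genes measured: Slc2a1, Hk1, Hk2, Pfkl, Pfkp, Aldoa, Aldoc, Pgk1, Ldha and Pdk1. They were chosen by name, with earlier results of these data known, and each was read on every Affymetrix probe set annotated with its symbol and no other, which gave 27 probe sets out of 45037 tested. The probe set with the highest mean stands for its gene, and the others are given beside it.

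The cells were mPAC L20, a line of mouse pancreatic duct cells. Every culture, controls included, was infected with Ad.CMV.Neurog3, an adenovirus in which the CMV promoter drives Neurog3, the factor that starts endocrine differentiation. Before that, 3 cultures had received an adenovirus with a scrambled hairpin (shControl) and 3 an adenovirus with a hairpin against the transcription factor Atoh8 (shAtoh8). The 250000 cells of a well met either virus at a multiplicity of infection of 40 (4 h for the hairpin virus, 1.5 h for the Neurog3 virus), and culture lasted another 44 to 46 h. No group lacked Neurog3 or virus, and each group was read on 3 arrays from independent experiments of 1 cell line. RNA came from whole cultures, so fewer cells in a given state and less RNA per cell cannot be told apart.

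Hexokinases (Hk1, Hk2) trap glucose as its 6-phosphate, phosphofructokinases (the liver-type Pfkl and platelet-type Pfkp subunits) commit it to glycolysis, and aldolases (Aldoa, Aldoc) split the resulting sugar. Pgk1 makes the first ATP of the pathway, Ldha turns pyruvate into lactate, and Pdk1 is not a glycolytic enzyme but a kinase that switches off pyruvate dehydrogenase and so keeps pyruvate out of the mitochondrion. Many of these genes are known targets of the hypoxia-inducible factor HIF-1, which binds the core ACGTG, and of Myc, which binds the E-box CACGTG.

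Promoter sequences are shown because these genes are textbook HIF-1 and Myc targets and were read together here. All 10 genes matched the RefSeq promoter table (GRCm38.p6), with 16 promoters of 300 bases, from 250 before to 50 after a gene start. ACGTG, searched on both strands and counted also inside CACGTG, was present in 8 of the 16, at 7 of the 10 genes, and in 19.6% of all 32851 promoters. Promoters 2 and 3 of Aldoa overlap and hold the same site, which was counted at each. The percentage is per promoter, and a share per gene was not computed. CACGTG was present in 1 of the 16 and in 7.15% of all. The 250 bases before the start are printed for Slc2a1 (chr4:119108495-119108744, plus strand), Hk2 (chr6:82774455-82774704, minus strand), Ldha (chr7:46845554-46845803, plus strand) and the first-listed start of Pdk1 (chr2:71872974-71873223, plus strand). They run 5′ to 3′ on the gene's strand, with ACGTG or its reverse complement in capitals.
Slc2a1: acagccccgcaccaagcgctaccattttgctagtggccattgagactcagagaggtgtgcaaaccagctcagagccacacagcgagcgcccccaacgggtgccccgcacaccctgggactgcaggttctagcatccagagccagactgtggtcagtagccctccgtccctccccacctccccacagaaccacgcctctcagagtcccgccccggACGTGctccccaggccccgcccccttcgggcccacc
Hk2: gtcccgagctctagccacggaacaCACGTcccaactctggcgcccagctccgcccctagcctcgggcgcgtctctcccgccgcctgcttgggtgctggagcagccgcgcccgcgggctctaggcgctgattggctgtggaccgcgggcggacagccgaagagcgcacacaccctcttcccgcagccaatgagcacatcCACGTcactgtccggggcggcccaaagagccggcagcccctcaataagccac
Ldha: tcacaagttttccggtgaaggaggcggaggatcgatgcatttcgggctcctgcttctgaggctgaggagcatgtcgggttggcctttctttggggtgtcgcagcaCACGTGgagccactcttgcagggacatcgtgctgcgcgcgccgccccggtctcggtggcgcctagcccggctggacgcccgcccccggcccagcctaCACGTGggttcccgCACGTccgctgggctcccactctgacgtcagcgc
Pdk1: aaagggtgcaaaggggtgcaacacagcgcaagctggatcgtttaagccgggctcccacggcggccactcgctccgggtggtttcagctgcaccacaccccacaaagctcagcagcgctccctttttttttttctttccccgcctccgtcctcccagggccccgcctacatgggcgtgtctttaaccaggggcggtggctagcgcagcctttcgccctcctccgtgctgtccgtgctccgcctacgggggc
Slc2a1 had 1 such stretch, beginning 36 bases before the start, and Hk2 had 2, at 226 and 52 bases. Ldha had 3, of which 2 were CACGTG, while neither promoter of Pdk1 had one. Pfkl and Pfkp also had none in these windows. A match in these letters is a description of the sequence, and binding was not measured. Other forms of the HIF-1 core, such as GCGTG, were not searched. A promoter without ACGTG may therefore still hold a HIF-1 core.

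Array medians lay between 5.49 and 5.56 (log2 signal), and the 7 measured duct and epithelial markers had means from 7.68 (Epcam) to 13.88 (Krt8). On single arrays their list averaged 11.35 to 11.64, and the fibroblast, endothelial and blood lists 4.53 to 5.19. Within these low lists the fibroblast marker Pdgfra (6.69 to 7.07) and the blood marker Cd68 (6.12 to 7.33) lay above the array medians on all 6 arrays. The acinar list averaged 6.55 to 6.82, with Cela1 at 8.16 to 8.86. The average of the islet list, from 5.16 upward, stayed below the array medians. Within that list Sst (6.32 to 6.68) and Ins2 (from 5.92 upward) lay above the medians on all 6 arrays, and Gcg (3.01 to 3.15) lay below. Of 17 measured markers of other cell types, 0 passed limma with or without the replicate block (1 at an unadjusted p under 0.05). Of 7 duct and epithelial markers, Epcam, an epithelial adhesion molecule, fell with the block, as did 2.75% of all genes. Its log2 fold change was -0.73 ± 0.19 SE (limma adjusted p = 0.145 without the block and 0.0463 with it). The part of Epcam in the results below was not tested. Atoh8, the hairpin's target, gave 8.75, 8.29 and 7.52 for the control replicates 1, 2 and 3 and 7.83, 7.90 and 7.37 for the knockdown replicates (-0.49 ± 0.30 SE, limma adjusted p = 0.573, and 0.157 with the block), so its lowering did not pass. Neurog3, which every culture received, was at -0.57 ± 0.48 (SE) on its brighter probe set, lower in all 3 replicate numbers (adjusted p = 0.706, and 0.0330 with the block), and at 0.18 ± 0.17 on the other; its part in the results below was not tested. One array stood apart: shAtoh8 replicate 2 had the weakest hybridisation spikes (mean 9.63, against 9.99 to 10.26 on the other 5) and the widest gap between 3' and 5' actin (0.354, against 0.107 to 0.202).

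All 10 genes had a lower mean in shAtoh8, with a median log2 fold change of -0.51, against a median of 0.01 over all genes, 46.9% of which were below 0. The log2 fold changes ran from -0.11 for Ldha to -1.03 for Pfkp. In limma without the replicate number, 0 of the 10 passed (5 at an unadjusted p under 0.05, against 17.5% of all genes in either direction), where 0.638% of all genes passed lower and 0.517% higher. With the replicate number as a block (arrays of 1 number deviated together, though the labels do not say what they share), 5 fell (Slc2a1, Hk2, Pfkp, Aldoc and Pdk1) and 0 rose, against 2.75% and 1.92% of all genes. In 8 of 10 genes shAtoh8 was lower within all 3 replicate numbers (21.5% of all genes), and in 3 of 10 all shAtoh8 arrays lay below all shControl arrays (11.4% of all genes).

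**Figure D1:**
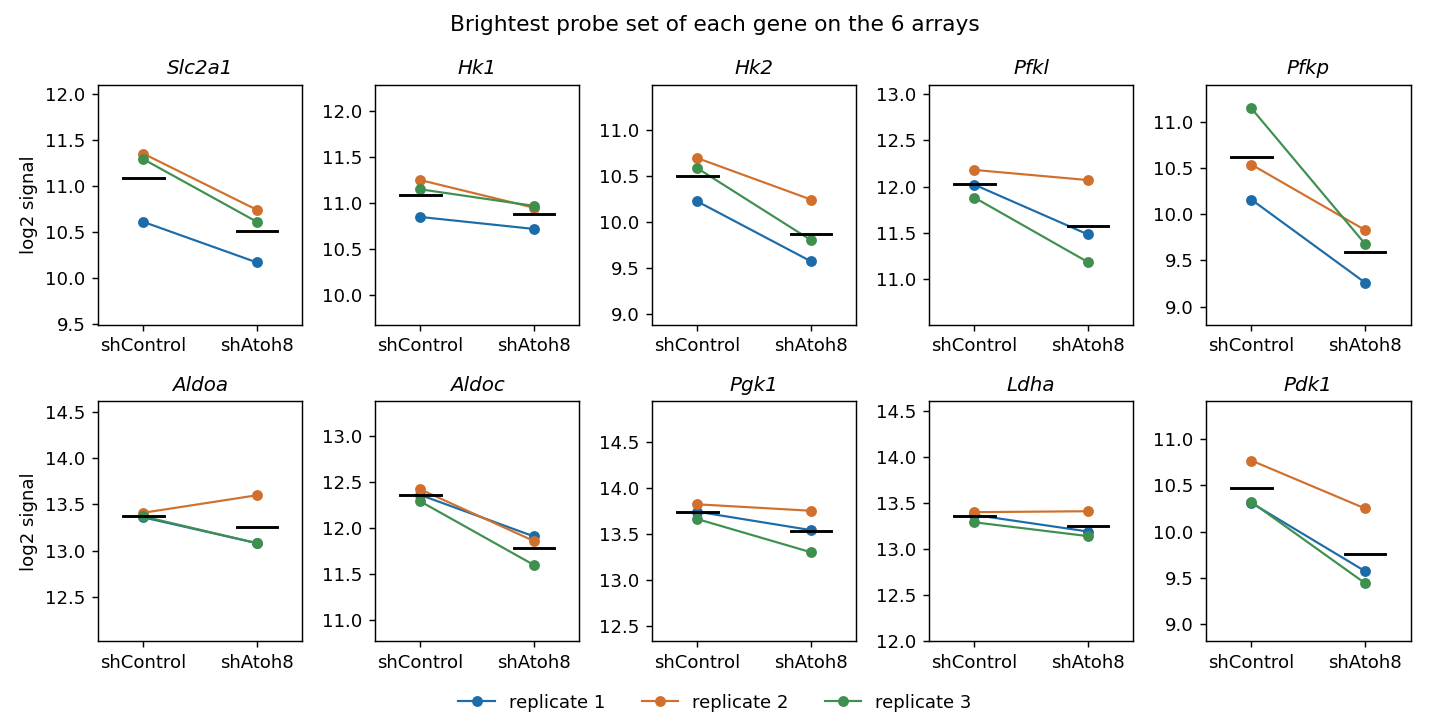
Log2 signal of the brightest probe set of each of the 10 genes in shControl and shAtoh8, with arrays of the same replicate number joined and group means as black bars; each panel spans the same log2 range. Every line falls except those of replicate 2 for Aldoa (13.41 to 13.60) and Ldha (13.40 to 13.41).

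Slc2a1, the glucose carrier at the head of the pathway, read 10.61, 11.35 and 11.29 on the shControl arrays, in the order of replicates 1 to 3 kept for every gene below, and 10.17, 10.74 and 10.61 on the shAtoh8 arrays. The groups overlapped, with replicate 1 the lowest of both, and each shAtoh8 array lay below its own control, by 0.44, 0.60 and 0.68. This was a log2 fold change of -0.57 ± 0.23 (SE), 1.49-fold lower (limma adjusted p = 0.323, and 0.0349 with the block). Its other 2 probe sets gave -0.64 and -0.66 and also fell with the block (0.0292 and 0.0320).

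Of the hexokinases, Hk2 had the lower log2 fold change and passed with the block, while Hk1 did not pass; the test of their difference is given with the isozymes. Hk2, the inducible form, read 10.22, 10.69 and 10.58 in shControl and 9.57, 10.24 and 9.80 in shAtoh8. Only the shAtoh8 replicate 2 array reached the lowest control. Its mean was lower by a log2 change of -0.63 ± 0.19 (SE), 1.54-fold lower (adjusted p = 0.197, and 0.0339 with the block). Hk1, the form most tissues carry, read 10.85, 11.25 and 11.15 against 10.72, 10.95 and 10.97. Its groups overlapped, and it did not pass on either probe set (-0.20 ± 0.13 and -0.31 ± 0.13; adjusted p = 0.280 and 0.174 with the block). In the promoters, ACGTG lay before the start of Hk2 as printed above, and at Hk1 after the start at 1 of its 2 promoters. Whether this bears on the levels of the pair was not tested.

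Pfkp, the platelet-type phosphofructokinase, had the largest difference of the 10. It read 10.16, 10.54 and 11.15 in shControl and 9.26, 9.83 and 9.68 in shAtoh8. All shAtoh8 arrays were lower than all controls, and the drop was deepest in replicate 3 (-1.46, against -0.90 and -0.71), where the control was highest. This gave a log2 fold change of -1.03 ± 0.26 (SE), 2.04-fold lower (adjusted p = 0.129, and 0.0318 with the block). A second probe set gave -1.06 ± 0.29 (0.153 and 0.0307).

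Pfkl, the liver-type subunit of the same enzyme, read 12.02, 12.18 and 11.88 in shControl and 11.48, 12.07 and 11.18 in shAtoh8. Replicate 2 of shAtoh8 sat among the controls, and the other 2 arrays lay below all of them. At -0.45 ± 0.22 (SE), the log2 fold change did not pass (adjusted p = 0.431, and 0.127 with the block). Its second probe set gave -0.46 ± 0.23. The third gave 0.14 ± 0.10, the one positive value among the 27 probe sets.

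Aldoc, the aldolase best known from brain, had the smallest p of the 10 without the block. It read 12.36, 12.42 and 12.29 in shControl, a span of little width, and 11.91, 11.86 and 11.60 in shAtoh8, and the groups lay apart. The log2 fold change was -0.57 ± 0.10 (SE), 1.48-fold lower (adjusted p = 0.0664, and 0.0352 with the block). It also passed with a variance model that follows signal level (0.0410) and as the mean of its 2 probe sets (-0.53, 0.0359). The dimmer set by itself gave -0.50 ± 0.13 and did not pass (0.154, and 0.0953 with the block).

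Aldoa, the ubiquitous aldolase, read 13.36, 13.41 and 13.37 in shControl and 13.08, 13.60 and 13.08 in shAtoh8. Replicates 1 and 3 were 0.28 lower than their controls, whereas shAtoh8 replicate 2 was above every control on all 5 probe sets. The mean difference of -0.12 ± 0.15 (log2, SE) did not pass (adjusted p = 0.809, and 0.680 with the block). All 5 sets carry the _x_ mark, which Affymetrix gives to probe sets whose probes can also bind other sequences, so the level is uncertain.

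Pgk1 read 13.74, 13.82 and 13.66 in shControl and 13.54, 13.75 and 13.30 in shAtoh8. Each shAtoh8 array was below its own control, by 0.20, 0.08 and 0.37, though the groups overlapped. A log2 fold change of -0.21 ± 0.12 (SE), with -0.20 and -0.19 on its other sets, did not pass (adjusted p = 0.543, and 0.294 with the block).

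Ldha read 13.37, 13.40 and 13.29 in shControl and 13.19, 13.41 and 13.14 in shAtoh8. Its replicate 2 arrays differed by 0.01, and the groups overlapped. The log2 fold change was -0.11 ± 0.10 (SE; adjusted p = 0.742, and 0.613 with the block). The brightest sets of Aldoa, Pgk1 and Ldha read 13.08 to 13.82 on the 6 arrays, where the highest value of any probe set was 14.43; whether the response was compressed at such signals was not tested.

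Pdk1, the kinase at the pyruvate branch, read 10.31, 10.77 and 10.32 in shControl and 9.57, 10.25 and 9.44 in shAtoh8. The groups lay apart by a narrow margin, with shAtoh8 replicate 2 just under the controls of replicates 1 and 3. The log2 fold change was -0.71 ± 0.23 (SE), 1.64-fold lower (adjusted p = 0.214, and 0.0292 with the block). Of its other sets, those at -0.80 ± 0.24 and -0.62 ± 0.22 fell with the block (0.0459 and 0.0469), and the dimmest, at -0.18 ± 0.18, did not (0.641).

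**Figure D2:**
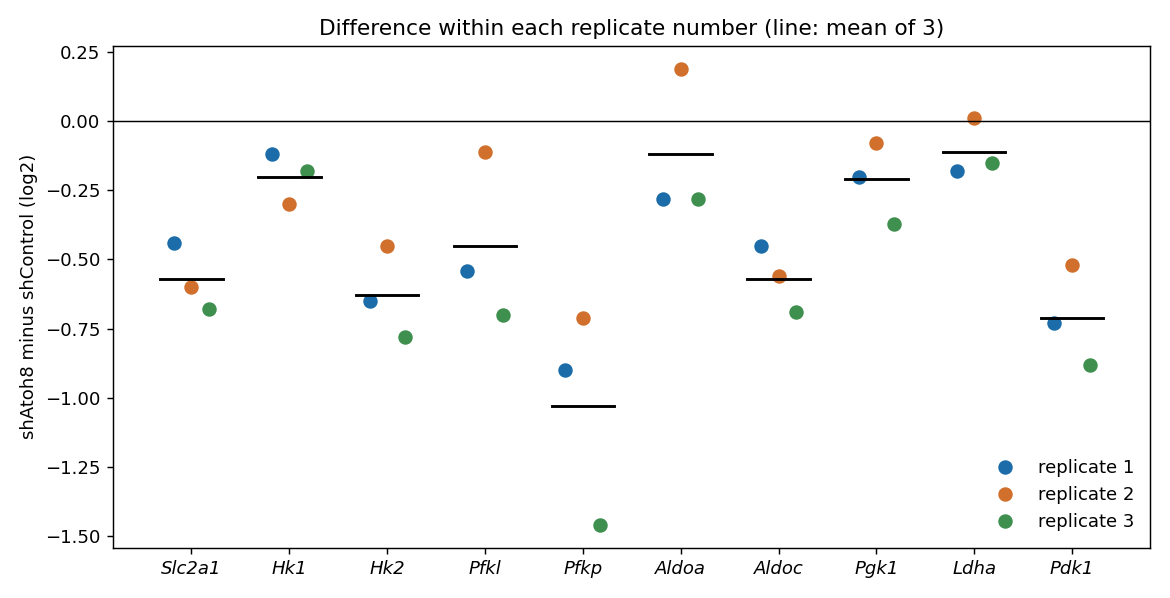
Difference between shAtoh8 and shControl (log2) within each replicate number for the 10 genes, with the mean as a black line. Pfkp shows the widest spread (-0.71 to -1.46), and replicate 2 is the least negative point in 7 of the 10 genes.

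Across all 27 probe sets, 26 were below 0 in shAtoh8 and 10 fell with the block (0 without it, 12 at an unadjusted p under 0.05). Of the 45037 tested, 46.7% were below 0, 2.06% fell with the block, 0.495% fell without it and 13.8% had an unadjusted p under 0.05 in either direction. Probe sets of a gene share its RNA and are not replicates. Of the 17 probe sets that were not the brightest of their gene, 16 had the sign of the brightest. The exception of Pfkl (5.04 to 5.44), the weakest set of Pfkp (4.48 to 5.21, -0.19 ± 0.18) and that of Pdk1 (4.12 to 4.85) all read below the array medians. Hk2 and Ldha had a single probe set each.

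**Figure D3:**
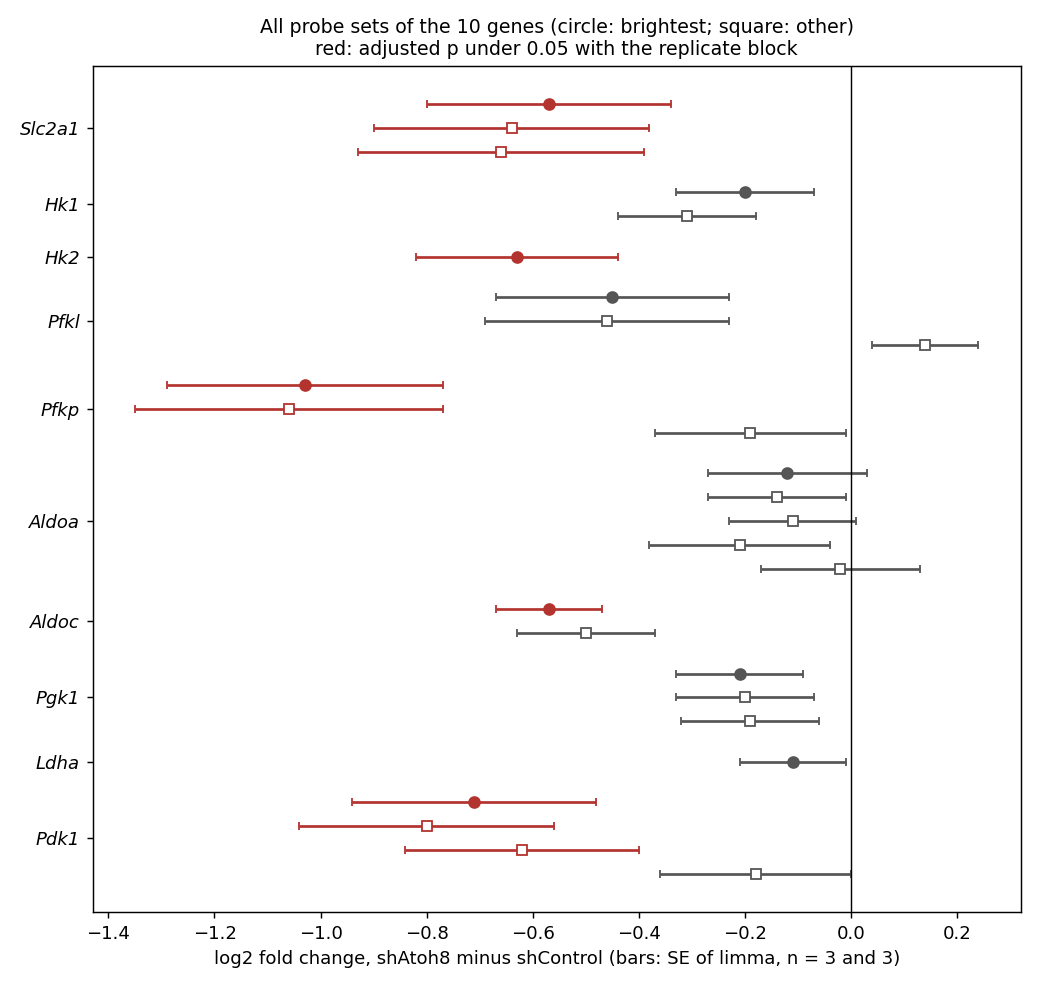
Log2 fold change with limma's SE (n = 3 and 3, fit without the block) for all 27 probe sets, the brightest of each gene as a filled circle; red marks an adjusted p under 0.05 with the replicate block. All 3 sets of Slc2a1 are red, and the lone point right of 0 is the dimmest set of Pfkl (0.14).

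Isozymes of 1 step were set against each other as the difference of their log2 signals on each array, which removes any shift common to an array. On the controls Hk2 minus Hk1 was -0.63, -0.56 and -0.56, and with the Atoh8 hairpin it was -1.16, -0.71 and -1.17, a change of -0.43 with no overlap (exact permutation p = 0.1, two-sided, 0.15 adjusted over the 3 pairs). Aldoc minus Aldoa was -0.99 to -1.08 on the 3 shControl arrays against -1.17, -1.74 and -1.48 in shAtoh8, a change of -0.44 with no overlap (exact permutation p = 0.1, adjusted 0.15). Pfkp minus Pfkl was -1.86, -1.64 and -0.73 against -2.22, -2.24 and -1.49, and the groups overlapped (-0.58, exact permutation p = 0.3, adjusted 0.3; -0.24 without shControl replicate 3 and -0.82 without shAtoh8 replicate 3). In each pair the change had the same sign within all 3 replicate numbers. With 3 arrays a group the exact test cannot go below 0.1, so none of these differences could pass it.

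The array that stood apart, shAtoh8 replicate 2, was the highest of the shAtoh8 arrays for 8 of the 10 genes. Among the controls, replicate 2 was likewise the highest for every one of these genes but Pfkp. That control array did not stand apart in its spikes (mean 10.12) or actin gap (0.202). Without shAtoh8 replicate 2 alone, its control kept, the median log2 fold change was -0.65. Pfkl was then at -0.70, Aldoa at -0.30, Pgk1 at -0.32, Ldha at -0.19 and Pdk1 at -0.96. Again 0 passed in limma, with a lowest adjusted p of 0.0671 (Pdk1), and 8 had an unadjusted p under 0.05, where 0.418% of all genes passed lower and 16.5% had such a p. Without shAtoh8 replicate 3 the median was -0.36, with Pfkl at -0.25, Aldoa at -0.04, Pgk1 at -0.10 and Ldha at -0.05. Without shAtoh8 replicate 1 it was -0.40, with Hk1 at -0.12 and Aldoa at -0.04, and without shControl replicate 2 Hk1 was also at -0.12. Without shControl replicate 1 Hk1 was at -0.32. With the block and without both arrays of replicate 2, 6 fell, Pfkl (-0.62) beside the other 5, against 3.66% of all genes. The median of the 10 was -0.56 in that fit. With the block and without both arrays of replicate 1 or of replicate 3, 0 of the 10 passed, as did 0 (0%) of all genes. The 5 calls with the block were thus lost in both of these fits. Without replicate 1 their log2 fold changes were -0.64 for Slc2a1, -0.62 for Hk2, -1.09 for Pfkp, -0.62 for Aldoc and -0.70 for Pdk1, and without replicate 3 they were -0.52, -0.55, -0.81, -0.50 and -0.63.

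The members' shared profile, each gene centred on its mean over the 6 arrays, averaged 0.07, 0.35 and 0.27 in shControl and -0.38, 0.04 and -0.35 in shAtoh8. Hk2 lay closest to it (root mean square difference 0.129 log2 units) and Pfkp farthest (0.394). Pgk1 and Ldha were each other's nearest member (0.0841), as were Slc2a1 and Hk2 (0.134). Among the other 18183 genes, the 5 nearest to the shared profile were Nfkbia, an inhibitor of NF-kB (0.0658), Pgm1, which interconverts glucose 1- and 6-phosphate (0.0665), Itpr3, a calcium channel of the endoplasmic reticulum (0.0701), Dhx34, an RNA helicase (0.0708), and Osbpl6, an oxysterol-binding protein (0.0751). Their log2 fold changes were between -0.38 and -0.55, given as a description since the genes were chosen for this profile.

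The other steps of glucose use were read from lists of 107 entries, 97 of them measured. Together they had a median log2 fold change of -0.02, and 2 passed lower and 1 higher without the block (0.638% and 0.517% of all genes), 14 and 1 with it (2.75% and 1.92%). The 14 measured other glycolytic enzymes had a median of -0.04, with 8 below 0, and 1 fell with the block. That was Eno2, the neuronal enolase, at 8.68, 9.69 and 8.87 in shControl and 8.02, 8.84 and 7.88 in shAtoh8 (-0.83 ± 0.33 SE; adjusted p = 0.316, and 0.0225 with the block). Its groups overlapped, with replicate 2 the highest in both. Of the same list, Pgk2, Ldhc and Pgam2 had group means of 3.80 to 5.30, below the array medians (5.49 to 5.56), where a fall could hardly show. The brightest of the list were Pkm (-0.05 ± 0.10), Tpi1 (-0.29 ± 0.14, lower in all 3 replicate numbers) and Pgam1 (0.07 ± 0.12). These brightest enzymes did not pass in either fit. The Gapdh control probe sets, read as levels alone, were lower on all shAtoh8 arrays by means of 0.12 to 0.13 on the log2 scale (the 3' set read 14.07 to 14.18 in shControl and 13.94 to 14.03 in shAtoh8).

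Of 12 other glucose transporters 1 fell without the block (0.638% of all genes) and 2 with it (2.75%). Slc2a13, Slc2a3, Slc5a1, Slc2a10 and Slc2a12 had group means of 3.41 to 5.48, below the array medians (5.49 to 5.56), where a fall could hardly show. Slc2a9, better known as a urate carrier, read 7.05, 6.87 and 6.89 in shControl and 5.98, 6.29 and 6.18 in shAtoh8 (-0.79 ± 0.11 SE; adjusted p = 0.0346, and 0.0308 with the block). The groups lay clear of each other. The Slc2a9 call was lost (adjusted p = 0.0920 to 0.132) without any 1 array but shAtoh8 replicate 2, and averaged over its probe sets the gene was at -0.36 (0.0858). Slc2a2, the carrier of beta cells and liver, had a log2 fold change of -0.50 ± 0.43 (0.717, and 0.0497 with the block), and read 11.58, 11.57 and 10.46 in shControl against 11.02, 11.25 and 9.84 in shAtoh8, lowest in replicate 3 of both.

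The 15 measured switches of glycolytic flux had a median of -0.18. Without the block 1 rose (0.517% of all genes), and with it 2 fell and 1 rose (2.75% and 1.92%). Mpc1, a subunit of the mitochondrial pyruvate carrier, read 11.11, 11.44 and 11.06 in shControl and 11.98, 12.06 and 12.05 in shAtoh8. It rose by 0.83 ± 0.11 (SE), 1.78-fold (adjusted p = 0.0366, and 0.0240 with the block), with no overlap, and the call was lost without any 1 of the 6 arrays (adjusted p of Mpc1 0.0671 to 0.110, log2 fold change 0.76 to 0.95). Pdk3, a relative of Pdk1, was at -0.49 ± 0.18 (0.274, and 0.0404 with the block), and Pdp2, a phosphatase that opposes these kinases, at -0.43 ± 0.07 (0.0547, and 0.0485 with the block). In the 5-gene pyruvate dehydrogenase complex 0 passed with or without the block (0 at an unadjusted p under 0.05 without it); the smallest p was that of Pdhx (-0.31 ± 0.14, adjusted p = 0.377).

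**Figure D4:**
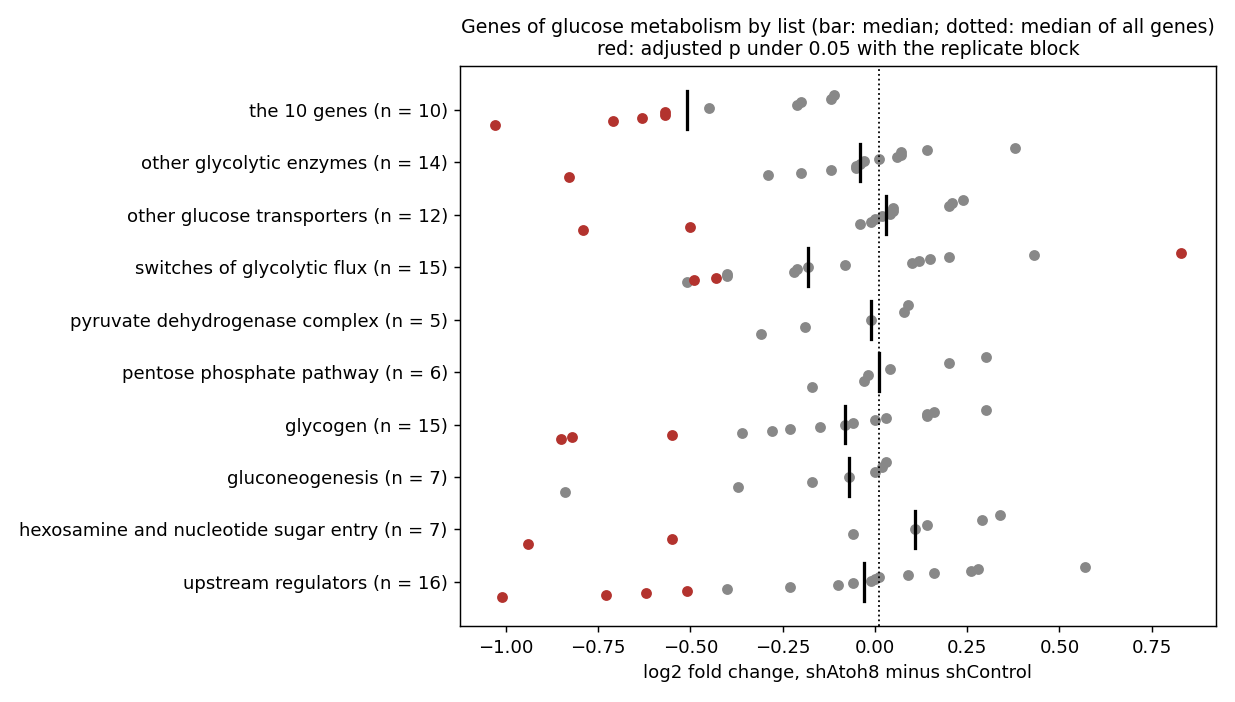
Log2 fold change of each measured gene of the lists of glucose metabolism, with list medians as bars, the median of all genes (0.01) as a dotted line and genes past the threshold with the replicate block in red. The 10 genes all lie left of 0, and Mpc1 (0.83) is the red point on the right.

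Side branches held single genes that passed with the block, where 2.75% of all genes fell and 1.92% rose. In glycogen metabolism (15 measured, median -0.08) 3 fell with the block: Gbe1, the branching enzyme (-0.85 ± 0.19 SE; adjusted p = 0.0981, and 0.0366 with the block), Gys1, glycogen synthase (-0.82 ± 0.31; 0.291 and 0.0380), and Pgm1 (-0.55 ± 0.12; 0.0997 and 0.0380). In the hexosamine branch (7 measured, median 0.11) 2 fell with it: Gfpt1, its entry enzyme (-0.94 ± 0.17; 0.0594 and 0.0189), and Uap1, which makes UDP-GlcNAc (-0.55 ± 0.10; 0.0547 and 0.0300). In the pentose phosphate pathway (6 measured, median 0.01) and gluconeogenesis (7 measured, median -0.07) 0 passed either fit (1 in each at an unadjusted p under 0.05). The members there with the smallest p were Rpe (0.30 ± 0.11, adjusted p = 0.262) and Pck2 (-0.84 ± 0.29, 0.243).

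The 16 upstream regulators had a median of -0.03, and 4 fell with the block (2.75% of all genes). Epas1, the HIF-2 alpha subunit, read 10.07, 9.99 and 10.13 in shControl and 9.34, 9.61 and 9.36 in shAtoh8 (-0.62 ± 0.10 SE), and was at the threshold without the block (adjusted p = 0.0499, and 0.0406 with it). That call was lost (0.132 to 0.160) without any 1 array but shAtoh8 replicate 2, without _x_ and _s_ probe sets (0.0521) and with the probe sets of Epas1 averaged (-0.32, 0.266). Egln1 (-0.73 ± 0.17; 0.0999 and 0.0290) and Egln3 (-0.51 ± 0.25; 0.444 and 0.0369) are HIF prolyl hydroxylases and are themselves known HIF targets. Myc was at -1.01 ± 0.30 (0.181 and 0.0384), with shControl replicate 3 the highest array at 10.11. That array was also the highest for Pfkp, Pdk3, Pck2 and Epas1, among others. Any link between Myc and these genes was not tested. Hif1a, named here outside the naming rule, read 11.41, 11.52 and 11.63 in shControl and 11.04, 11.37 and 10.95 in shAtoh8; its difference did not pass (-0.40 ± 0.13; 0.211 and 0.141).

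Set against the sequences shown above, the calls were spread as follows. Of the 5 genes that fell with the block, 3 had ACGTG in a window (Slc2a1, Hk2 and Aldoc, in the last after the start), and of the other 5 genes 4 had it (Hk1, Aldoa, Pgk1 and Ldha). No test was made of these counts.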

How the data were processed

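The deposited table holds log2 signals per probe set from 6 Affymetrix arrays, made with RMA in the affy package per the submitters' processing notes; the sources used here give no versions. RMA puts the arrays on a common distribution, which would remove a shift of most genes. The platform annotation supplied for the array named the genes, and all 10 symbols matched a RefSeq table (GRCm38.p6) by Entrez ID. After 64 control probe sets were set aside, 45037 were tested without a filter on brightness in limma 3.58.1 (R 4.3.3), shAtoh8 against shControl, two-sided, with Benjamini-Hochberg adjustment over all of them at 0.05. Errors are limma's SE or the SD, and the number of arrays limits the precision. Each SE is from the fit without the block, also where an adjusted p with the block stands beside it. The SE with the block can differ, as for Slc2a2 (0.43 without and 0.09 with it).

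Deviations from group means correlated between arrays of the same replicate number at 0.407, 0.187 and 0.433 (other pairings -0.351 to 0.0292), so the number was taken to pair the arrays, an inference from these correlations since the labels speak of independent replicates and do not say that a number marks a shared day. A fit with the number as a block is given wherever it changed a call. Counts of genes use 1 probe set a gene. The 10 genes, the lists and the tests were chosen with earlier results of these data known. Genes of the other lists were named by rule. These were up to 3 with the smallest p among those past the threshold in either fit, otherwise the 1 with the smallest p. Egln3, Hif1a and the genes named for their signal level were added after their values were seen. Alternatives covered scaling, a brightness filter, the variance model, array weights, left-out arrays and the choice of probe sets.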

Additional observations from a re-analysis of the deposited data

How the results depend on the processing

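The 10 genes had a negative log2 fold change under every alternative run (9 without _x_ and _s_ probe sets, which leaves out Aldoa), and their median ranged from -0.65 to -0.36. The count past the threshold, 0 without the block, was 5 with the replicate block and 0 to 6 with the block and 1 replicate number left out. It was 1 (Aldoc) with the trend and robust variance model, with a gene's probe sets averaged and at an adjusted p under 0.1, where 1.45%, 2.52% and 3.80% of all genes passed (1.15% in the fit as reported). It was 0 with each array left out in turn, where 0 to 117 of 18193 genes passed (at most 0.643%). Of the 97 genes of the other lists 3 passed; the count was 15 with the replicate block (0 to 16 with 1 replicate number left out), 6 with probe sets above the median level alone, 6 with array weights, 10 at an adjusted p under 0.1, and 0 to 3 with 1 array left out. It was 0 without any 1 of the shControl arrays or of shAtoh8 replicates 1 and 3. The calls of Slc2a9, Mpc1 and Epas1 were thus lost in those fits. As only 0 to 41 of the 18193 genes passed there, the loss does not show that a call rests on 1 array. The Mpc1 call was also lost without shAtoh8 replicate 2, where 117 genes passed. Without 1 array the isozyme differences ranged from -0.58 to -0.35 (Hk2 minus Hk1), -0.82 to -0.24 (Pfkp minus Pfkl) and -0.59 to -0.30 (Aldoc minus Aldoa); median centring and the block cannot change them. The cause of these changes was not tested, except that leaving out arrays leaves fewer samples.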
